A study of Homo sapiens with 9 samples.

Results

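The AP-1 subunits FOS, FOSB, FOSL1, FOSL2, JUN, JUNB and JUND, together with ATF3, EGR1 and NR4A1, were followed in A549 cells, an established human lung adenocarcinoma line. These 10 genes were chosen by name, with earlier results of these data known. They came from 22411 genes with a row that carries a single gene symbol in the platform annotation, and each had exactly 1 such row. The cells were taken 72 h after transfection with mixed siRNA against FAM210B (si-FAM210B), mixed siRNA against UQCRC2 (si-UQCRC2) or a negative control siRNA (control), with 3 arrays for each of the 3 groups. All groups are the same line and were transfected, so none shows untransfected cells, and a single time point was taken. UQCRC2 is part of complex III of the respiratory chain, and the product of FAM210B also sits in mitochondria. The series title names the comparison of si-FAM210B with control. Values are RMA signals on the log2 scale, on which a difference of 1 is a doubling. Each row has its own probes, so levels of different genes are compared only roughly, by percentiles of row means. The labels name biological replicates and do not say that they were grown or transfected apart, so each p-value reflects the spread of these arrays, which may be technical.

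AP-1 is a dimer of bZIP proteins. FOS family proteins (FOS, FOSB, FOSL1, FOSL2) must pair with a JUN family protein (JUN, JUNB, JUND) to bind DNA, whereas JUN proteins also pair with each other and with ATF proteins. Most of these genes are immediate early genes: growth factors and stress raise their transcription through ERK, JNK and p38 kinases and through factors such as the serum response factor, which binds CArG boxes, and their RNAs decay fast. FOSL1 and FOSL2 typically follow later and stay up longer in cells with sustained ERK signalling, and JUND is expressed steadily in many tissues. ATF3 is a bZIP factor of the stress response, EGR1 a zinc finger factor, and NR4A1 an orphan nuclear receptor.

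The label of the cells was set against markers. The keratins KRT8, KRT18 and KRT7 lay at or above the 99.6th percentile of all row means, as did AKR1B10, ALDH1A1 and NQO1, which are abundant in A549 cells. Of the other markers of the line, AKR1C1 lay at the 96.6th percentile, CDH1 at the 89.0th, KRT19 at the 86.4th and EPCAM at the 68.6th. Some of them differed between groups: CDH1, which encodes E-cadherin, fell by 1.09 ± 0.06 in si-FAM210B (log2, SE, limma adjusted p = 1.82e-05), AKR1C1 fell by 0.36 there, and KRT19 and EPCAM rose by 0.73 and 0.24 in si-UQCRC2. Their part in the changes of the factors was not tested. PTPRC of leukocytes, PECAM1 of endothelium and DCN of fibroblasts lay at or below the 24.4th percentile. The other markers of these cells lay higher, from the 54.3rd percentile for CD3E of T cells to the 81.7th for COL1A1, so the array signal does not set all of them apart as absent. The summed linear signal of 9 markers of immune, endothelial and fibroblast cells was 238 to 266 in control, 262 to 311 in si-FAM210B and 237 to 244 in si-UQCRC2, and its part in the results was not tested. None of the 6 that passed the level filter was called against control, and COL1A1 of fibroblasts was higher by 0.40 in si-FAM210B than in si-UQCRC2. UQCRC2 read 9.96, 9.84 and 9.70 in control and 8.34, 8.37 and 8.37 in si-UQCRC2. FAM210B read 6.39, 6.46 and 6.48 in control and 6.48, 6.10 and 6.22 in si-FAM210B, so replicate 1 was at the level of the controls. FAM210B was not called lower in si-FAM210B (-0.17 ± 0.09, 88.7% of control, adjusted p = 0.239), and the groups overlapped. Whether the library labelled si-FAM210B replicate 1 is what its label says could not be settled from the values, which limits every si-FAM210B result, and group names below are those of the labels.

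A pair of arrays stood apart, and the factors moved with them. The first principal component of the genes tested held 55.3% of the variance. The score of si-FAM210B replicate 1 on it was -33.2, and its group mates scored -0.908 and -8.39. Control replicate 3 scored -6.99, and the other controls 12.1 and 9.87. Of the 10 factors, 9 were highest in si-FAM210B replicate 1 within its group, compared with 49.4% of all genes tested. In control replicate 3, 9 of the 10 were also highest within the group, compared with 51.0% of all genes. The median of the factors lay 0.18 above the group mean in si-FAM210B replicate 1 and 0.15 above it in control replicate 3 (log2), against 0.03 for all genes on either array. In the si-UQCRC2 group no array held more than 5 of the 10 highest values. The calls and counts against control are therefore also given with both deviating arrays left out. Both were picked from these same values, and leaving them out tends to narrow the spread within their groups. Smaller p-values in that fit are therefore no separate support. For those groups it rests on si-FAM210B replicates 2 and 3 and on control replicates 1 and 2.

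The sequences before the annotated starts are shown for the factors whose RNA differed from control in a test (JUNB, FOSL2, NR4A1) and for JUN, JUND and EGR1, which carry the elements searched for. They are RefSeq windows of GRCh38.p14, 250 bases up to the base before the start, written 5′ to 3′ along the gene, and capitals mark matches on either strand to any of the elements described next. FOSL1 had no such window. A window of ATF3 also holds an element, and its sequence is not shown here.
JUNB (chr19:12791236-12791485, plus strand): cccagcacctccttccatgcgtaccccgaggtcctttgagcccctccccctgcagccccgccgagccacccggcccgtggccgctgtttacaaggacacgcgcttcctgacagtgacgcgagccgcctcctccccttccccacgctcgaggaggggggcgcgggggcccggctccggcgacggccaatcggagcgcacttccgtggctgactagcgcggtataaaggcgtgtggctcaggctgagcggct
FOSL2 (chr2:28392608-28392857, plus strand): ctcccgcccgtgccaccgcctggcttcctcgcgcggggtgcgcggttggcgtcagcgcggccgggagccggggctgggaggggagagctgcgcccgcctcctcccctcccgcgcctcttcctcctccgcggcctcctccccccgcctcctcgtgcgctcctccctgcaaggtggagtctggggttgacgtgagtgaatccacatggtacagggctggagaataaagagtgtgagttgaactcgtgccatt
JUN (chr1:58784048-58784297, minus strand): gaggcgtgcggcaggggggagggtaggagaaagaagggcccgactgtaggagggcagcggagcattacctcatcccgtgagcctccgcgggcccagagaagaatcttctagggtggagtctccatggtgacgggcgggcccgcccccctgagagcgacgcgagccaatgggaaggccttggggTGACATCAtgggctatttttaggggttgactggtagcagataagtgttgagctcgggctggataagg
JUND (chr19:18281623-18281872, minus strand): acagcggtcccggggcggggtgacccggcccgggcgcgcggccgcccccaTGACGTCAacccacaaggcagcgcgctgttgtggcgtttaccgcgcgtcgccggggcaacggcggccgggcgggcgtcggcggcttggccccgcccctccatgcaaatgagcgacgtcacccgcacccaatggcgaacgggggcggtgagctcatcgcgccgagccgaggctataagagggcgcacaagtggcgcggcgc
NR4A1, first start (chr12:52022582-52022831, plus strand): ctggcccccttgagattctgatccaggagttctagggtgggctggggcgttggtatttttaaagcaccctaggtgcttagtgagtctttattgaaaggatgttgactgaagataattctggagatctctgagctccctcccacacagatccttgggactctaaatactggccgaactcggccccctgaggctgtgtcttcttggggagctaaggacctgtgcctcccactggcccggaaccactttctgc
NR4A1, second start (chr12:52037465-52037714, plus strand): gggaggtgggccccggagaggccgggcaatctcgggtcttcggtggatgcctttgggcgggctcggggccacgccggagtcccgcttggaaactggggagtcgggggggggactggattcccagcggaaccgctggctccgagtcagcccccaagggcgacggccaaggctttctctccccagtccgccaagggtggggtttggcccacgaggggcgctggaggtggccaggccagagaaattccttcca
EGR1 (chr5:138465229-138465478, plus strand): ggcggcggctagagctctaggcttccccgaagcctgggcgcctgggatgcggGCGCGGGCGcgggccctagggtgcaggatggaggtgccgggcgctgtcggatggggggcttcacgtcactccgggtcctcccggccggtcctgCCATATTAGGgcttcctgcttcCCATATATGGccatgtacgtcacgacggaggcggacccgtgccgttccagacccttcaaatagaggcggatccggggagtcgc

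The elements were the AP-1 element TGANTCA, the cyclic AMP response element TGACGTCA, the ATF/JUN element TGACATCA, the EGR element GCGNGGGCG and the CArG box. Of 11 windows before starts of 9 of the 10 genes, 4 held a match. The JUN window holds the ATF/JUN element 67 to 60 bases before the start, and the first of the ATF3 windows holds it 123 to 116 bases before. This element is present in 2.37% of the 35116 windows of the same length. The JUND window holds the cyclic AMP response element, which 1.65% of all windows hold. The EGR1 window holds CArG boxes 105 to 96 and 83 to 74 bases before the start, an element in 1.16% of windows, and an EGR element, found in 8.41%. The AP-1 element, in 6.57% of all windows, was in none of the 11. The JUNB, FOSL2 and NR4A1 windows held none of the searched letters, which says nothing of binding outside these windows or to other letters.

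**Figure D1:**
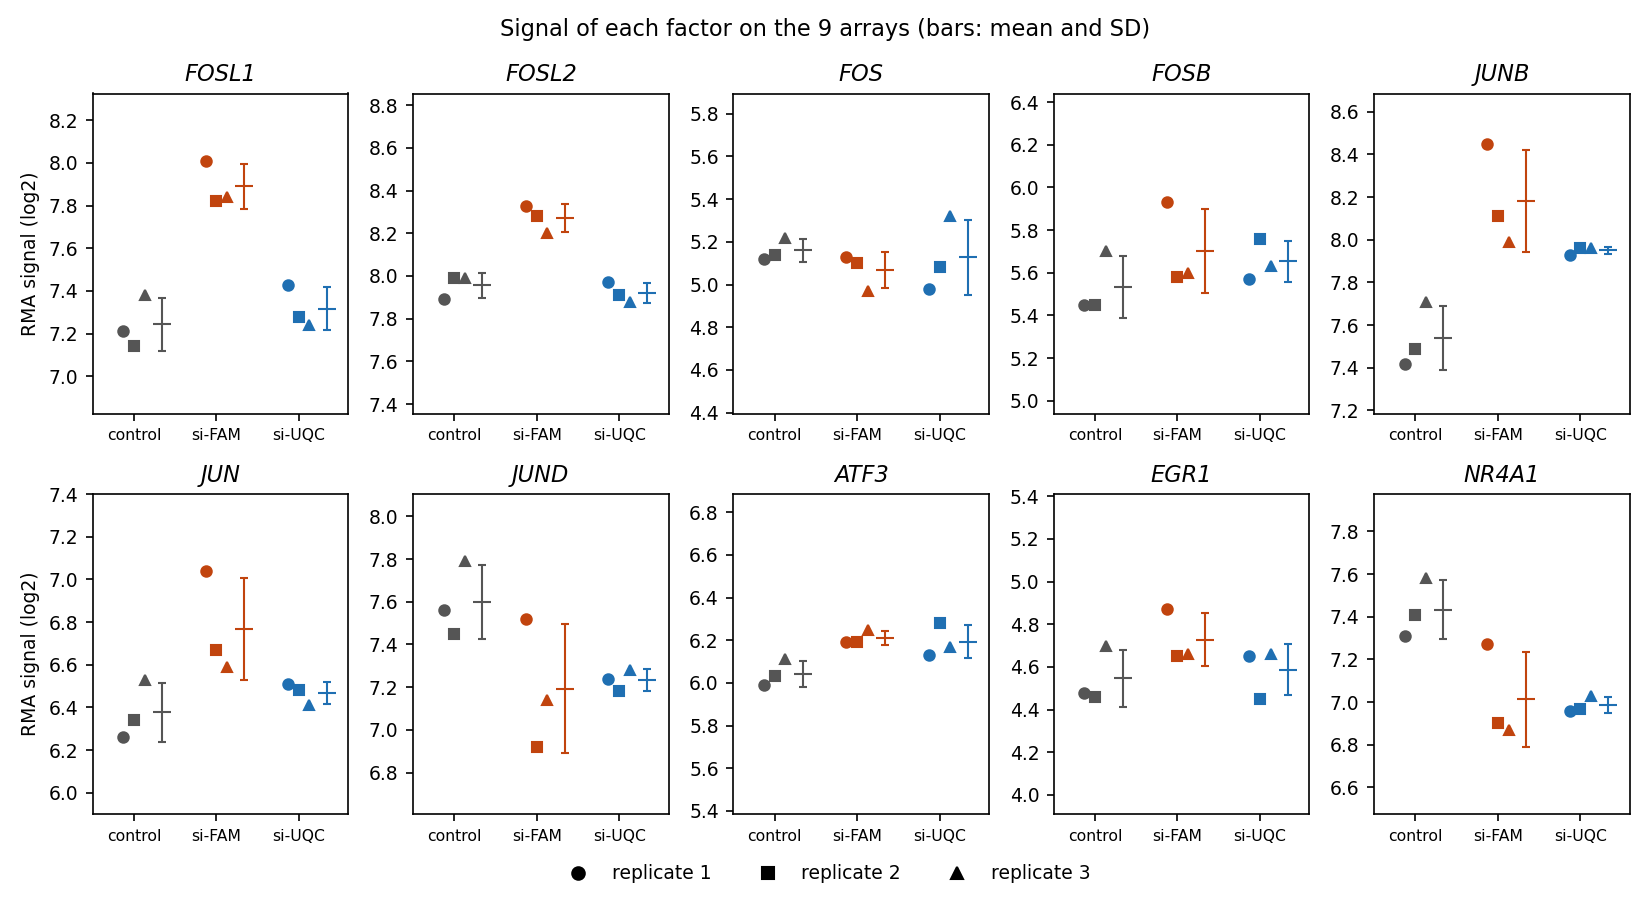
Each panel shows the RMA signal (log2, vertical axis spanning the same range in every panel) of a factor on the 9 arrays, by group, with a symbol for each replicate and the mean with its SD beside them. FOSL1, FOSL2, JUNB, JUN and ATF3 lie higher in all 3 si-FAM210B arrays than in any control array. NR4A1 lies lower than in any control array in all arrays of both knockdown groups.

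In si-FAM210B cells, FOSL1, FOSL2 and JUNB were called higher and NR4A1 lower in the fit of all 9 arrays. FOS, FOSB, JUN, JUND, ATF3 and EGR1 gave no call there. Of the 10 factors, all of which were above the level filter and tested, 3 were called higher and 1 lower at a limma adjusted p under 0.05, which is 40.0% of the factors beside 6.28% of the 15964 genes tested (2.78% higher and 3.50% lower). Their median log2 fold change was 0.17, against 0.03 for all genes. The factors and the gene lists below were chosen with earlier results of these data known. Such shares therefore do not test whether they changed more often than other genes. Groups did not overlap for 6 of the 10 factors, beside 24.0% of all genes. When both deviating arrays were left out, the calls were 5 higher and 2 lower, with JUN and ATF3 added to the increases and JUND to the decreases, beside 24.4% of all genes in that fit. The main fit shares 1 estimate of the spread over the 3 groups. The median SD of the genes tested was 0.13 in si-FAM210B, 0.0878 in control and 0.0379 in si-UQCRC2. The si-UQCRC2 arrays, with the smallest spread, thus enter the SE of this comparison. In a fit of these groups alone, without the si-UQCRC2 arrays, FOSL1 was the single call. There the limma adjusted p was 0.0959 for FOSL2, 0.0680 for JUNB and 0.167 for NR4A1.

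Within the FOS family the calls were those of FOSL1 and FOSL2. FOSL1, which encodes FRA1, read 7.21, 7.14 and 7.38 in control, 8.01, 7.82 and 7.84 in si-FAM210B and 7.43, 7.28 and 7.24 in si-UQCRC2. All si-FAM210B values lay at least 0.44 above every control value, while the si-UQCRC2 values ran through those of control. The increase in si-FAM210B was 0.65 ± 0.08 (log2, SE), or 1.57-fold with a 95% confidence interval of 1.38 to 1.79 (limma adjusted p = 0.00244). Here and below n = 3 per group, except in fits that leave arrays out. The exact two-sided permutation p was 0.1, the smallest that 3 against 3 arrays allow. FOSL1 kept its call in all 21 alternatives, which are 12 other ways to scale, filter or fit the data and 9 fits that each leave out 1 array, and in which the change ranged from 0.58 to 0.72, with 0.66 ± 0.07 when the deviating pair was left out (adjusted p = 0.000915).

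FOSL2, which encodes FRA2, read 7.89, 7.99 and 7.99 in control, 8.33, 8.28 and 8.20 in si-FAM210B and 7.97, 7.91 and 7.88 in si-UQCRC2. The SD within a group was at most 0.07, and the si-FAM210B arrays stood clear of both other groups. FOSL2 rose in si-FAM210B by 0.32 ± 0.06 (1.24-fold, limma adjusted p = 0.0150, exact permutation p = 0.1). The call held in 16 of the 21 alternatives. It ended in the fit of these groups alone (adjusted p = 0.0959) and with the replicate number as a block (0.0571). It also ended without control replicate 1 (0.0762) or control replicate 2 (0.0579), and when every row of the table was tested (0.0713). With that pair left out the change was 0.30 (adjusted p = 0.00863).

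FOS, the founding member whose RNA is induced fast and briefly, read 5.12, 5.14 and 5.22 in control, 5.13, 5.10 and 4.97 in si-FAM210B and 4.98, 5.08 and 5.32 in si-UQCRC2. These values overlap in every pair of groups. The si-FAM210B difference of FOS was -0.10 with a 95% interval of -0.29 to 0.10 (adjusted p = 0.454), and the si-UQCRC2 difference -0.03 with an interval of -0.23 to 0.16. FOSB, another rapidly induced FOS protein, read 5.45, 5.45 and 5.70 in control and 5.93, 5.58 and 5.60 in si-FAM210B. Its highest values came from the deviating array of each group. The FOSB difference was 0.17 with an interval of -0.07 to 0.40 (adjusted p = 0.321), and 0.12 with an interval of -0.12 to 0.36 in si-UQCRC2, where FOSB read 5.57, 5.76 and 5.63. With the deviating pair left out, neither was called in si-FAM210B: FOS differed by -0.10 (adjusted p = 0.478) and FOSB by 0.13 (adjusted p = 0.143). The row means of FOS and FOSB lay at the 62.9th and 70.4th percentiles of all rows. That is within the range of the higher markers of other cells given above, so the lack of a call says little.

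Among the JUN proteins, JUNB rose in si-FAM210B, and JUN and JUND gave differences of opposite sign that were not called. JUNB, which is often a weaker activator than JUN and can replace it in dimers, read 7.42, 7.49 and 7.71 in control, 8.45, 8.11 and 7.99 in si-FAM210B and 7.93, 7.96 and 7.96 in si-UQCRC2. Both knockdown groups lay above every control array. JUNB rose by 0.64 ± 0.11 in si-FAM210B (1.56-fold, interval 1.31 to 1.86, adjusted p = 0.0115, exact permutation p = 0.1). The call ended in the fit of these groups alone (adjusted p = 0.0680) and without control replicate 1 (0.0613) or 2 (0.0593), and without both deviating arrays the increase was 0.59 ± 0.05 (adjusted p = 0.000576).

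JUN, the partner of FOS in the classical AP-1 dimer, read 6.26, 6.34 and 6.53 in control, 7.04, 6.67 and 6.59 in si-FAM210B and 6.51, 6.48 and 6.41 in si-UQCRC2. The lowest si-FAM210B array lay 0.06 above the highest control array, and si-FAM210B replicate 1 gave the largest value. The difference of 0.39 ± 0.11 did not pass (adjusted p = 0.0711). JUN was called at 0.33 ± 0.05 without both deviating arrays (adjusted p = 0.00557), at 0.47 without control replicate 3 (0.0464) and with array weights (0.00363). JUND, the steadily expressed JUN protein, read 7.56, 7.45 and 7.79 in control, 7.52, 6.92 and 7.14 in si-FAM210B and 7.24, 7.18 and 7.28 in si-UQCRC2. Its si-FAM210B replicate 1 lay among the controls, and the other arrays of both knockdown groups lay below them. The JUND difference in si-FAM210B was -0.41 ± 0.14 (adjusted p = 0.107), and -0.48 ± 0.08 without both deviating arrays (adjusted p = 0.00562).

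ATF3 and EGR1 gave no call in the fit of all 9 arrays. ATF3, a bZIP factor induced by stress, read 5.99, 6.03 and 6.11 in control, 6.19, 6.19 and 6.25 in si-FAM210B and 6.13, 6.28 and 6.17 in si-UQCRC2, so both knockdown groups lay just above control. The ATF3 differences of 0.17 ± 0.06 and 0.15 ± 0.06 did not pass (adjusted p = 0.128 and 0.265), and without both deviating arrays that of si-FAM210B was 0.21 (adjusted p = 0.0368). EGR1, a zinc finger factor induced with FOS, read 4.48, 4.46 and 4.70 in control, 4.87, 4.65 and 4.66 in si-FAM210B and 4.65, 4.45 and 4.66 in si-UQCRC2. The groups overlapped, and the EGR1 row mean lay at the 55.6th percentile of all rows. That is also within the range of the higher markers of other cells, so the lack of an EGR1 call says little. The EGR1 difference was 0.18 with an interval of -0.03 to 0.39 in si-FAM210B (adjusted p = 0.234) and 0.04 with an interval of -0.17 to 0.25 in si-UQCRC2. The former was 0.19 with the pair left out (adjusted p = 0.0916).

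NR4A1, also called NUR77, was the single factor called lower in both knockdown groups. In a bulk sample, less RNA per cell cannot be told apart from fewer cells that hold it. It read 7.31, 7.41 and 7.58 in control, 7.27, 6.90 and 6.87 in si-FAM210B and 6.96, 6.97 and 7.03 in si-UQCRC2. No array of either knockdown reached a control array, but si-FAM210B replicate 1 came within 0.04 of the lowest. NR4A1 fell by 0.42 on the log2 scale in si-FAM210B (SE 0.11, 74.7% of the control signal, adjusted p = 0.0484) and by 0.45 in si-UQCRC2 (SE 0.11, 73.3% of the control signal, adjusted p = 0.0471). Both comparisons use the same control arrays. These calls were near the threshold: they held in 7 and in 9 of 21 alternatives, and they ended without any 1 of the control arrays (adjusted p = 0.0794 to 0.141 in si-FAM210B and 0.0778 to 0.145 in si-UQCRC2). Without both deviating arrays the changes were -0.48 ± 0.05 (adjusted p = 0.00102) and -0.37 ± 0.05 (adjusted p = 0.00178).

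**Figure D2:**
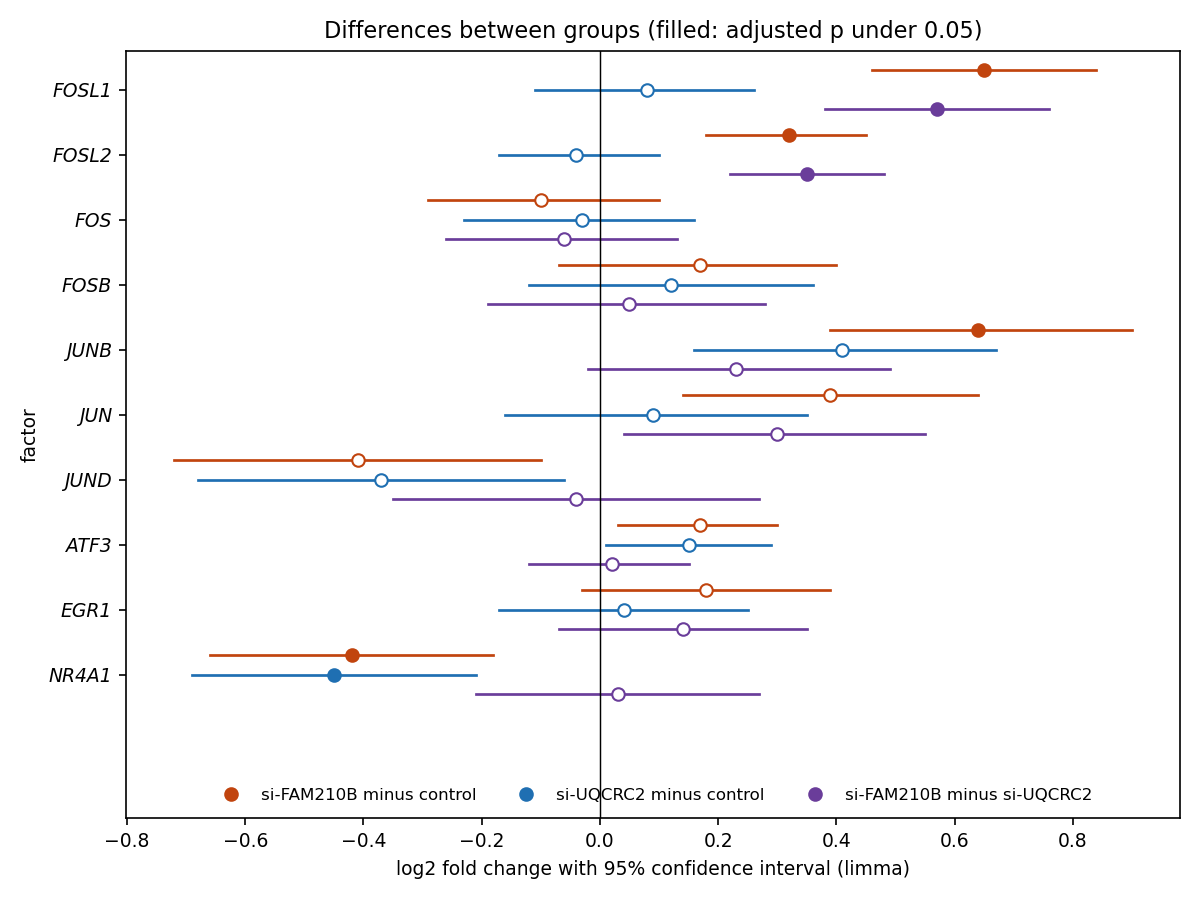
Points are limma log2 fold changes (horizontal axis) of each factor in the 3 comparisons, lines their 95% confidence intervals, and filled points have an adjusted p under 0.05. FOSL1 and FOSL2 are filled in both comparisons that involve si-FAM210B and lie near 0 for si-UQCRC2 minus control, while NR4A1 is filled and of like size in both comparisons with control.

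In si-UQCRC2 cells, the decrease of NR4A1 was the call among the 10 factors in the fit of all 9 arrays. That 1 of 10 stands beside 4.46% of all genes tested (3.02% higher and 1.44% lower). Groups did not overlap for 4 of the 10, namely JUNB, JUND, ATF3 and NR4A1, beside 29.2% of all genes. JUNB was 0.41 ± 0.11 higher (1.33-fold, adjusted p = 0.0846), and JUND differed by -0.37 ± 0.14 (adjusted p = 0.221). The si-FAM210B arrays, whose spread was the largest, enter the SE of this comparison. In a fit of these groups alone, without the si-FAM210B arrays, JUNB, JUND and NR4A1 were called (limma adjusted p = 0.0112, 0.0299 and 0.00619). That fit called 1449 of the 15964 genes tested. In the fit without the deviating pair, 5 factors were called, beside 17.1% of all genes in that fit: FOSB (0.20), JUN (0.17) and JUNB (0.50) were higher, and JUND (-0.27) and NR4A1 (-0.37) lower. FOSL1 and FOSL2 gave 0.08 with an interval of -0.11 to 0.26 and -0.04 with an interval of -0.17 to 0.10 in si-UQCRC2, and were called in none of the 21 alternatives.

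The direct comparison of the knockdowns, which does not use the control means, separated FOSL1 and FOSL2 from the other factors. FOSL1 was 0.57 ± 0.08 higher in si-FAM210B than in si-UQCRC2 (1.49-fold, adjusted p = 0.00354) and FOSL2 was 0.35 ± 0.06 higher (1.28-fold, adjusted p = 0.00674). These 2 of 10 factors (20.0%) stand beside 9.78% of all genes tested, with 3.28% higher and 6.50% lower, and both calls held in all 21 alternatives. Groups did not overlap for 4 of the 10 factors, beside 41.7% of all genes. JUNB and JUN differed by 0.23 with an interval of -0.02 to 0.49 (adjusted p = 0.195) and 0.30 with an interval of 0.04 to 0.55 (adjusted p = 0.119). JUND, ATF3 and NR4A1 differed by -0.04, 0.02 and 0.03, with intervals of -0.35 to 0.27, -0.12 to 0.15 and -0.21 to 0.27, and the sign for ATF3 and NR4A1 turned under other scalings. With the pair left out, FOSL1 (0.51), FOSL2 (0.32) and JUN (0.16, adjusted p = 0.0483) were called higher in si-FAM210B, beside 24.0% of all genes called in that fit. In a test over all 3 groups, FOSL1 (adjusted p = 0.00205), FOSL2 (0.00798), JUNB (0.0155) and NR4A1 (0.0363) passed, as did 11.6% of all genes.

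**Figure D3:**
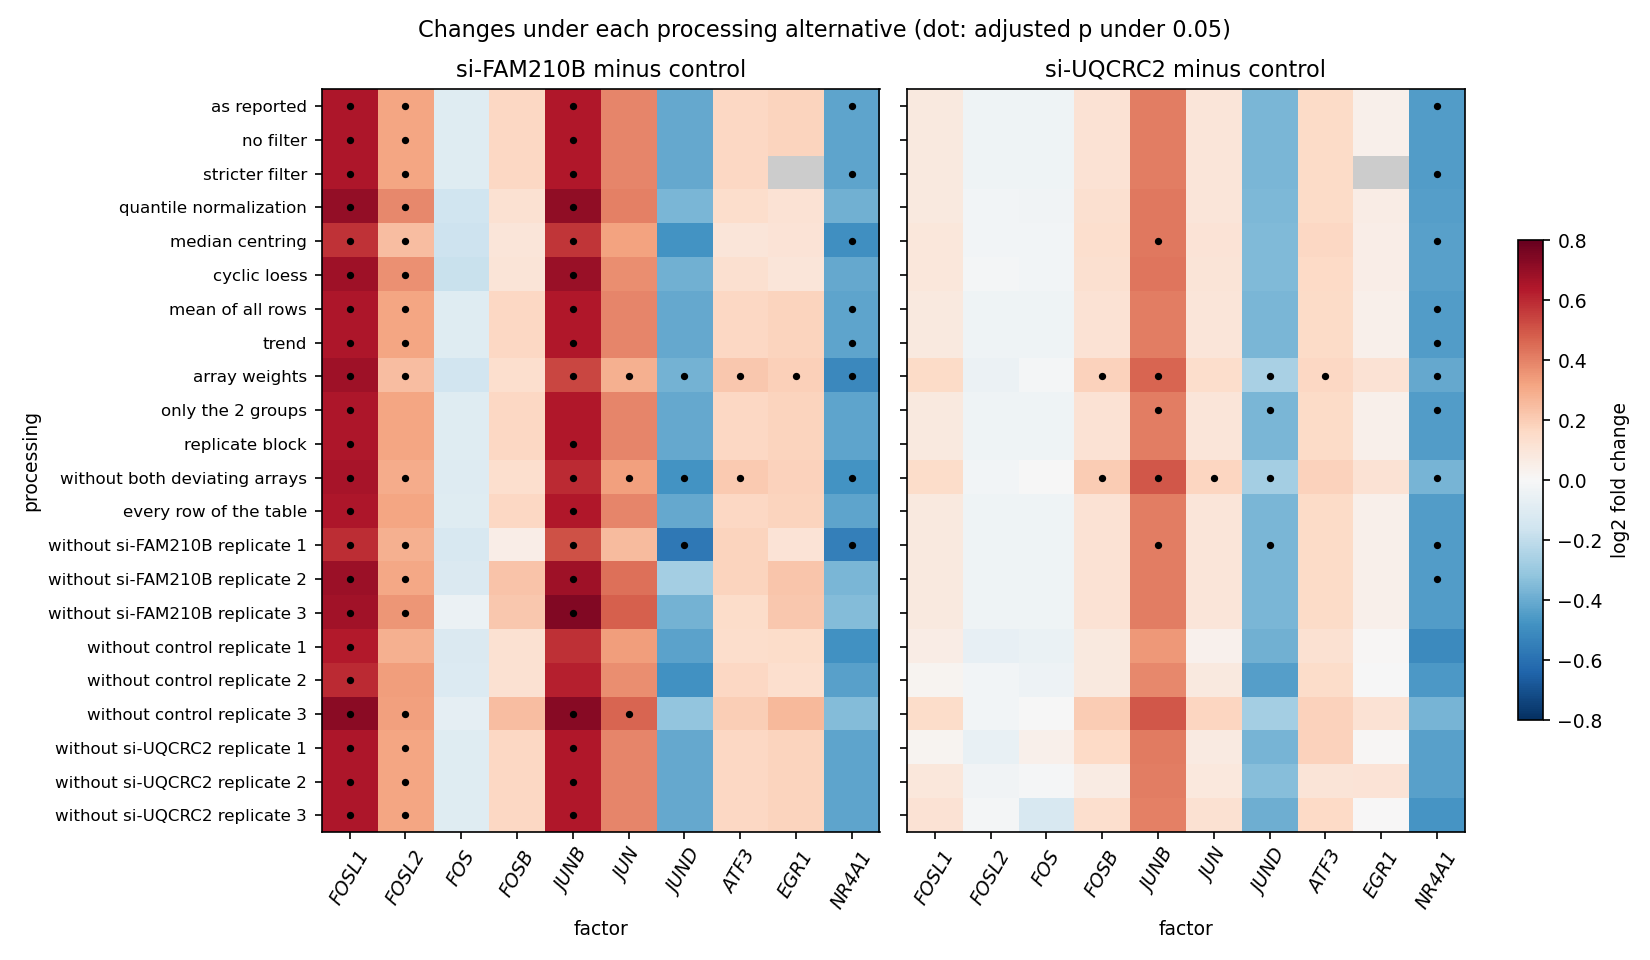
Colours give the log2 fold change of each factor (columns) as reported and under each of the 21 processing alternatives (rows), for si-FAM210B minus control on the left and si-UQCRC2 minus control on the right, and a dot marks an adjusted p under 0.05. A grey cell was below the stricter level filter. The FOSL1 column on the left carries a dot in every row, and the NR4A1 columns carry it in few of the rows that leave out 1 array.

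Genes whose pattern over the 9 arrays was most like that of a called factor were found by the root mean square difference of gene-centred log2 values, as a description. The closest to FOSL1 were ADGRG1, an adhesion receptor (0.056), PMEPA1, an inhibitor of TGF-beta signalling (0.069), and the pseudogene LSP1P4 (0.074), against a spread of FOSL1 about its own mean of 0.304. The closest to FOSL2 were the chemokine receptor ACKR3 (0.035), the small GTPase GEM (0.044) and SETBP1 (0.044), against 0.165. JUNB lay closest to the LIM protein gene PDLIM7 (0.082), RTL8B (0.093) and the surface glycoprotein gene THY1 (0.099), against 0.297. NR4A1 lay closest to IER5L, an immediate early response gene (0.064), the WNT ligand WNT7B (0.082) and JUND (0.093), against 0.240. These distances share the same arrays and the same deviating pair.

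Other immediate early genes moved in both directions in si-FAM210B cells. Of 31 tested, 4 rose and 4 fell (25.8%, beside 6.28% of all genes), with a median change of 0.11 against 0.03 for all genes. ZFP36L1, which promotes decay of AU-rich mRNAs, rose by 0.48 ± 0.05 and the transcription factor ETS2 by 0.43 ± 0.06. GEM (0.39) and the matricellular protein gene CCN1 (0.34) also rose. PTGS2, the inducible prostaglandin synthase, fell by 0.90 ± 0.15 (log2), NR4A2, a paralog of NR4A1, fell by 0.54 ± 0.06, and ZFP36L2 and SGK1 both fell by 0.24. In si-UQCRC2, 3 of the 31 rose (9.68%, beside 4.46% of all genes) and none fell by limma: ETS2 (0.44), ZFP36L1 (0.40) and CCN1 (0.36). NR4A2 read 5.95, 5.96 and 5.82 in control, 5.37, 5.34 and 5.41 in si-FAM210B and 5.77, 5.86 and 5.91 in si-UQCRC2, and its si-UQCRC2 values overlapped those of control. Between the knockdowns, 3 of the 31 were called higher in si-FAM210B and 2 lower (16.1%, beside 9.78% of all genes). The largest differences were those of PTGS2 (-1.37, limma adjusted p = 0.000886), NR4A2 (-0.47, 0.00205) and PPP1R15A (0.42, 0.0373). PTGS2 differed by 0.47 in si-UQCRC2 against control and was not called there (adjusted p = 0.146). Without both deviating arrays the immediate early counts against control were 10 higher and 6 lower in si-FAM210B, and 6 higher and 2 lower in si-UQCRC2, beside 24.4% and 17.1% of all genes.

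Genes upstream of the factors were called about as often as all genes against control. Of 23 tested kinases, RAS proteins and transcription factors that act on immediate early promoters, ELK3, a partner of the serum response factor, rose by 0.52 ± 0.06 in si-FAM210B (adjusted p = 0.00158). In si-UQCRC2 the receptor EGFR rose by 0.31 ± 0.07 (adjusted p = 0.0334). Each is 1 of 23 (4.35%), beside 6.28% and 4.46% of all genes. Between the knockdowns 4 of the 23 were called (17.4%, beside 9.78% of all genes): MAP3K1, a kinase upstream of JNK, was 0.62 lower in si-FAM210B, the JNK gene MAPK8 0.31 lower, EGFR 0.27 lower and ELK3 0.32 higher. Of 9 other bZIP partners tested none was called by limma against control in either knockdown. MAFG was 0.39 higher in si-FAM210B than in si-UQCRC2 (11.1% of the list, beside 9.78% of all genes). Of 8 corepressors and ubiquitin ligases, none was called against control in si-FAM210B. In si-UQCRC2, 1 was called (12.5%, beside 4.46% of all genes): FBXW7, a ligase that marks JUN for degradation, rose by 0.26. Between the knockdowns 2 of the 8 were called, beside 9.78% of all genes. The EGR corepressor gene NAB1 was 0.30 lower in si-FAM210B than in si-UQCRC2, and FBXW7 was also lower there (-0.22, limma adjusted p = 0.0415). RNA levels do not show kinase activity or protein decay. After removal of the deviating pair, 6 upstream genes (2 higher and 4 lower) were called in si-FAM210B and 5 in si-UQCRC2. They stand beside 24.4% and 17.1% of all genes, so these counts are no result about the upstream list. The same fit called 1 of the 8 corepressors and ligases lower in si-FAM210B. In si-UQCRC2 it called 4 of them, 2 higher and 2 lower.

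Part of the known target genes of AP-1 rose in each knockdown. Of 16 tested, out of 24 with a row, 8 rose and none fell in si-FAM210B (50.0%, beside 6.28% of all genes), with a median change of 0.27 against 0.03 for all genes. In si-UQCRC2, 5 of the 16 rose and none fell (31.2%, beside 4.46% of all genes), with a median of 0.10 against -0.01. The cytokine gene IL11 read 6.54, 6.60 and 6.64 in control, 7.40, 7.38 and 7.23 in si-FAM210B and 6.73, 6.73 and 6.63 in si-UQCRC2. IL11 rose by 0.74 ± 0.06 in si-FAM210B and was 0.64 higher there than in si-UQCRC2. The chemokine CCL2 rose by 0.69 ± 0.07 and 0.32 ± 0.07 in the 2 knockdowns, and HBEGF, an EGFR ligand, by 0.56 ± 0.05 and 0.47 ± 0.05. PLAUR, the urokinase receptor, rose by 0.43 ± 0.08 in si-FAM210B and by 0.56 ± 0.08 in si-UQCRC2, and TIMP1, a metalloproteinase inhibitor, by 0.40 ± 0.05 in si-UQCRC2. Between the knockdowns, 3 of the 16 were called higher in si-FAM210B and 1 lower, beside 9.78% of all genes called. The lower one was TIMP1 (-0.21, limma adjusted p = 0.0415). The list names targets that other factors also control, and its genes were chosen with earlier results of these data known. Without both deviating arrays the counts against control were 11 and 6 higher and none lower, beside 24.4% and 17.1% of all genes called.

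Targets of EGR1 and stress genes that accompany ATF3 were also followed. Of 11 EGR1 targets tested, 4 were called in si-FAM210B (36.4%, beside 6.28% of all genes). FN1, the matrix protein fibronectin (0.50 ± 0.10), THBS1 (0.37) and ICAM1 (0.33) rose, and GDF15 fell by 0.62 ± 0.15. In si-UQCRC2, FN1 was the call, higher by 0.76 ± 0.10 (9.09% of the list, beside 4.46% of all genes). Leaving out the pair gave 4 higher and 1 lower in si-FAM210B and 6 higher in si-UQCRC2, beside 24.4% and 17.1% of all genes. Of 12 stress genes, GDF15, which is on both lists, was the call in si-FAM210B, and SESN2, a stress-induced regulator of mTORC1, rose by 0.33 in si-UQCRC2. Each is 8.33% of the list, beside 6.28% and 4.46% of all genes. Between the knockdowns, 4 of these 12 were lower in si-FAM210B and 1 higher (41.7%, beside 9.78% of all genes), with GDF15 at -0.72, the asparagine synthetase gene ASNS at -0.50 and VLDLR at -0.48. In the fit without the deviating pair, 7 were lower and 1 higher, beside 24.0% of all genes called.

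**Figure D4:**
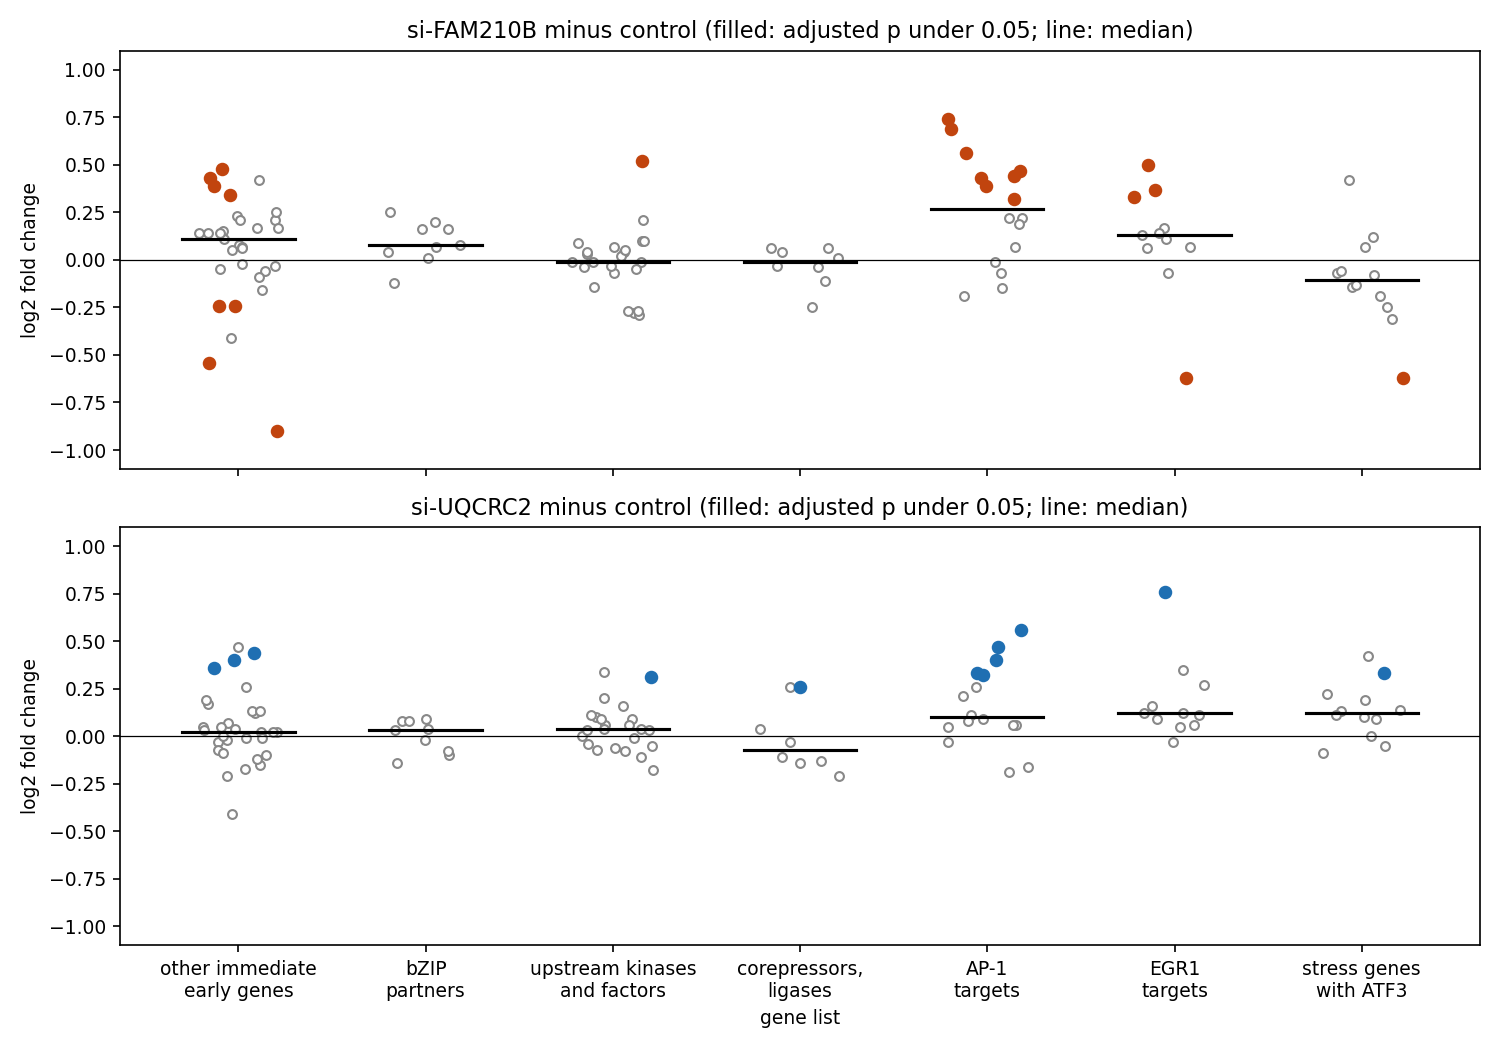
Each point is the log2 fold change (vertical axis) of a tested gene of a list (horizontal axis), above for si-FAM210B minus control and below for si-UQCRC2 minus control, filled at an adjusted p under 0.05, with the list median as a line. The AP-1 targets hold 8 filled points above and 5 below, all higher than control, and the other immediate early genes in si-FAM210B hold filled points on both sides of 0.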

How the data were processed

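Biotin-labelled cDNA from total RNA was hybridised on Affymetrix arrays, per the labels' protocols. The values are the authors' log2 signals from RMA, per the submitters' processing notes, deposited as 67528 rows with no missing value. The version and annotation behind them are unknown here. Array medians were 4.20 to 4.40. Precision is limited by the number of arrays.

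Symbols came from the platform annotation, updated through RefSeq (GRCh38.p14): 23781 rows had 1 symbol, 1543 several and 42204 none. For each of 22411 genes the row of highest mean was kept. The 15964 genes with a mean of at least 4.25, which is the median over rows, were tested with limma 3.58.1 (R 4.3.3; lmFit, eBayes) on all 9 arrays with 6 residual degrees of freedom. P-values were adjusted by Benjamini-Hochberg over these genes. Each ± after a change is limma's SE. The fit was tested on simulated data.

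Members, lists and tests were chosen with earlier results of these data known. Named genes were all members, the targeted genes, the cell type markers, up to 3 called genes of largest change per list and comparison, and the 3 genes nearest in pattern to each called member. ZFP36L2, SGK1 and ICAM1 were named after their values were seen, to complete small counts. Array weights were estimated gene by gene after the default estimate did not converge. Deviations of arrays with the same replicate number correlated by -0.584, 0.512 and -0.388 between si-FAM210B and control. Those of si-FAM210B replicate 1 and control replicate 3 correlated by 0.742. That pair weighs on the other values, so they cannot settle whether the numbers pair the arrays. The main fit uses no pairing.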

Additional observations from a re-analysis of the deposited data

How the results depend on the processing

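As reported, 1002 genes and 4 factors were called in si-FAM210B against control, 712 and 1 in si-UQCRC2 against control, and 1561 and 2 between the knockdowns. In that order, array weights gave 7018, 4145 and 7002 genes with 8, 5 and 3 factors, and leaving out both deviating arrays gave 3889, 2736 and 3835 genes with 7, 5 and 3 factors. Fitting only the groups compared gave 227, 1449 and 1040 genes with 1, 3 and 2 factors, and testing every row of the table gave 582, 445 and 1134 with 2, 0 and 2. The replicate block gave 409, 342 and 798 genes with 2, 0 and 2 factors, and FOSL2 and NR4A1 lost their calls against control under it. Under the replicate block, the called EGR1 targets in si-FAM210B went from 4 to 1 and the stress genes from 1 to 0, and the AP-1 targets in si-UQCRC2 from 5 to 3. Median centring gave 559 genes in si-FAM210B and 2 factors in si-UQCRC2, where no filter, quantile normalization and cyclic loess gave 0 factors. Leaving out 1 array gave 306 to 1975, 249 to 1654 and 505 to 3280 genes, with 1 to 5, 0 to 3 and 2 factors. The cause of these moves was not tested. Of the called genes in si-FAM210B, 44.3% were higher, against 55.5% after quantile normalization and 32.9% after median centring. Between the knockdowns the share was 33.6%, against 18.2% after median centring, 45.9% without both deviating arrays and 56.7% with array weights. In si-UQCRC2 it was 67.7%, against 48.0% and 46.9% in the last 2 settings.

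Between the knockdowns, uncalled differences near 0 changed sign. ATF3 gave -0.013, -0.067 and -0.030 under quantile normalization, median centring and cyclic loess. FOSB gave -0.0034, -0.037 and -0.027 under the same settings, -0.048 with array weights and -0.066 without both deviating arrays. NR4A1 gave -0.058 under median centring, -0.10 with array weights and -0.10 without both deviating arrays. Leaving out 1 array moved ATF3 from -0.016 to 0.061, FOSB from -0.066 to 0.11, NR4A1 from -0.10 to 0.099, JUND from -0.21 to 0.095 and FOS from -0.14 to 0.033. In si-UQCRC2 against control it moved EGR1 from -0.0034 to 0.12 and FOS from -0.13 to 0.038.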
